A study of Mus musculus with 9 samples.

Results

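The 7 genes described here, Tyr, Tyrp1, Dct, Slc45a2, Oca2, Mlana and Mitf, serve the synthesis of melanin, the pigment of the epithelium behind the retina. They were taken by gene symbol from the 21769 genes of the deposited tables, and all 7 were found. Polyadenylated RNA of whole mouse retina had been sequenced in 9 libraries, 3 per group, each made from 2 retinae. The rd10 mice, whose retinae the labels call degenerated, were taken at postnatal day 61. The GFP-expressing mice, labelled as having normal retinae, were read as the line written Gg13, taken at day 42, because no other group lacked an age. The wild-type mice, also labelled as normal, were taken at day 48. Age therefore coincided with genotype, and the effects of age and genotype cannot be told apart. In rd10 mice Pde6b, which encodes a subunit of the rod phosphodiesterase, is mutated, and the rods are lost after birth. Neither the promoter that drives GFP nor the strain background is given in the sources used here. The replicates are called biological in the design text.

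Melanin is made inside melanosomes. Tyrosinase, encoded by Tyr, oxidises tyrosine and dopa, the tautomerase encoded by Dct rearranges dopachrome, and the protein of Tyrp1 acts on the product of that step and stabilises tyrosinase. Membrane proteins encoded by Slc45a2 and Oca2 regulate the ions and the acidity of the melanosome, Mlana encodes a small melanosomal protein, and Mitf encodes the transcription factor that drives the pigment genes. In the eye these genes are expressed in the pigment epithelium of the retina, iris and ciliary body and in the melanocytes of the choroid, while the neural retina makes no melanin. Fragments of the pigment epithelium can stay attached to a dissected retina.

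MITF binds a sequence known as the M-box, an extended form of the E-box, in front of pigment genes. The promoters of Tyr, Tyrp1 and Dct, the 3 related enzyme genes, are shown because they hold the same 9 letters of the M-box, which the capitals mark. The windows come from RefSeq on GRCm38.p6 and run from 250 bases before to 50 bases after the annotated start. They lie at chr7:87493463-87493762 (minus strand) for Tyr, chr4:80833963-80834262 (plus strand) for Tyrp1 and chr14:118052197-118052496 (minus strand) for Dct.
Tyr: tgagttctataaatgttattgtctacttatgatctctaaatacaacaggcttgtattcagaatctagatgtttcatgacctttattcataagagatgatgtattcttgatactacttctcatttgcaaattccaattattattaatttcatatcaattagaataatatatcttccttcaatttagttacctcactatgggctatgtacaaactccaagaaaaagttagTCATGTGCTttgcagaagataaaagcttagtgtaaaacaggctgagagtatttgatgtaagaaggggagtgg
Tyrp1: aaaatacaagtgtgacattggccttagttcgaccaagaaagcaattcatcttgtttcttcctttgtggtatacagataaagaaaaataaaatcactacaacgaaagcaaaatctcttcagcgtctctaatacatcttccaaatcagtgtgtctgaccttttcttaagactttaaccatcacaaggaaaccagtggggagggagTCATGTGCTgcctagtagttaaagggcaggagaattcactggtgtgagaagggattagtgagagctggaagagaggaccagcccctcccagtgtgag
Dct: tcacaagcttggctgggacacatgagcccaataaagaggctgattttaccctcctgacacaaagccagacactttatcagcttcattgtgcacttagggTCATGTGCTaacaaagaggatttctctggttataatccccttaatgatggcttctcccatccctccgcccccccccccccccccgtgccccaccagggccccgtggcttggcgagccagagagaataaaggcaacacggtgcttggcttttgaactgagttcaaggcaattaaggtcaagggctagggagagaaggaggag

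The table held windows for 5 of the 7 genes, with 3 starts for Mitf, and Slc45a2 and Mlana were not matched. Both strands were searched for the M-box letters TCATGTGCT, chosen with these sequences in view, and for the E-boxes CATGTG, which lies within the M-box, and CACGTG. The M-box letters began 22 bases before the start in Tyr, 47 bases before it in Tyrp1 and 151 bases before it in Dct, each time on the strand of the gene. Of all 32851 windows of this length, 134 (0.408%) held these letters. Dct had a further CATGTG on the other strand, 232 bases before the start, and Oca2 had its single CATGTG on the other strand, 186 bases before the start. CATGTG was found in 14.2% of all windows and CACGTG in 7.15%. Neither the M-box letters nor an E-box of these letters was found in the 3 Mitf windows.

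**Figure D1:**
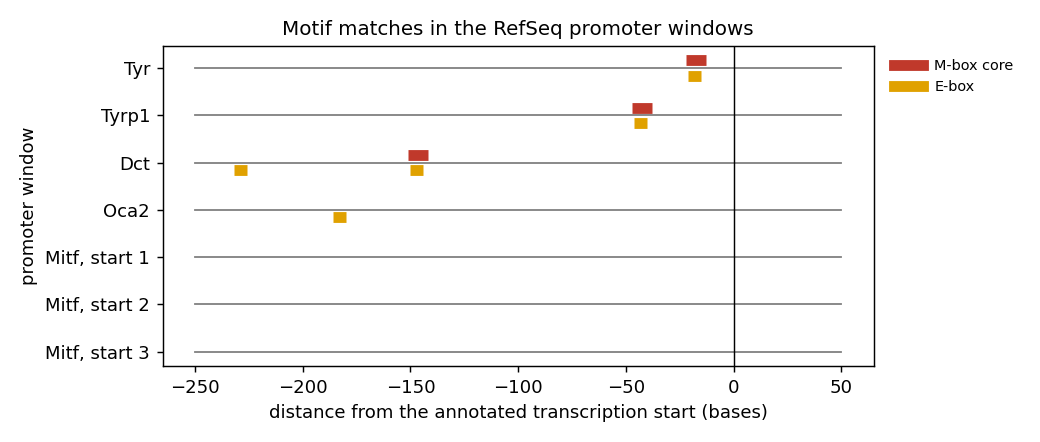
Positions of the M-box letters (red) and of the CATGTG E-box (yellow) in the promoter windows of 5 genes, as distance in bases from the annotated start (vertical line). The red marks lie 22 bases before the start in Tyr, 47 in Tyrp1 and 151 in Dct, and the Oca2 and Mitf windows have none.

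Library totals ran from 10571532 to 12149448 counts in rd10, from 9597635 to 11856196 in GFP and from 10037144 to 11629409 in wild type. Levels are given as CPM, counts per 1000000 after scaling with TMM (trimmed mean of M values), so that 1 CPM stood for 8.72 to 13.6 counts. Summed over 8 rod genes, the level was 360 to 1035 CPM in rd10, 76994 to 87138 CPM in GFP and 71415 to 96039 CPM in wild type. Summed over 8 lens genes, rd10 2, GFP 1, wild type 2 and wild type 3 had 1786 to 4321 CPM, GFP 2 had 32.6 CPM, and the other libraries had 2.80 to 4.85 CPM. Lens RNA was thus present in libraries of every group. In bulk RNA, fewer cells of a type and less RNA per cell cannot be told apart.

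The enzyme genes Dct and Tyrp1 were about 2 to 3 times higher in rd10 retina than in either normal group, and their rd10 libraries lay above all 6 normal libraries. Tyr, the gene of the enzyme that starts the pathway, did not pass the test. In rd10 against wild type, 2 of the 6 tested genes passed, both higher, while 14.5% of all 14300 tested genes were called higher. In rd10 against GFP, 3 of 6 passed, all higher, while 15.2% of all genes were called higher. The median log2 fold change of the 6 genes was 0.81 against wild type and 1.06 against GFP, beside -0.03 and -0.02 over all genes. Both comparisons use the same 3 rd10 libraries. The rd10 values lay above and apart from the wild-type values for 2 of the 6 genes and below them for 0, where 26.1% and 24.4% of all genes did so. Set against GFP, 3 of the 6 lay above and 0 below, where 25.1% and 23.1% of all genes did so. Scaled by library totals, calls over all genes were 3604 higher and 1077 lower against wild type, where TMM gave 2067 and 1988.

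**Figure D2:**
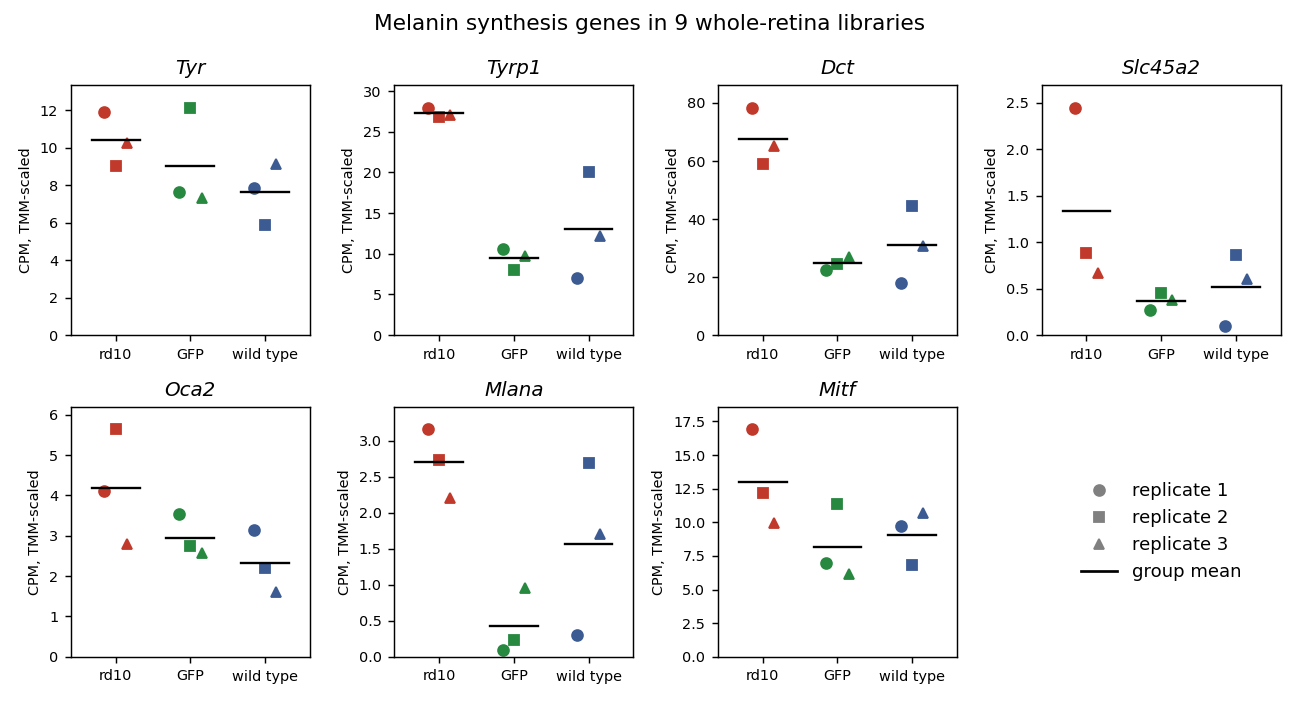
TMM-scaled CPM of the 7 genes in each library (symbols mark the replicates), with the mean of each group as a line and a separate linear axis from 0 for each gene. The rd10 libraries lie above all normal libraries for Tyrp1 and Dct, and the groups overlap for Tyr, Oca2 and Mitf.

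Dct (chromosome 14, 118412012 to 118451468, minus strand, mm9) had 78.4, 59.0 and 65.2 CPM in rd10 libraries 1 to 3, 22.6, 24.6 and 27.0 CPM in GFP libraries 1 to 3, and 18.0, 44.5 and 30.7 CPM in wild-type libraries 1 to 3. Every rd10 library was above every normal library, and the wild-type libraries spread more widely than the GFP libraries. Its mean was 67.5 ± 9.90 CPM in the rd10 libraries, against 31.1 ± 13.3 CPM in wild type (SD, n = 3 each). The log2 fold change was 1.12 (SE 0.28, adjusted p = 0.0132 by the quasi-likelihood test of edgeR, adjusted after Benjamini and Hochberg over all genes). Against GFP, with 24.7 ± 2.20 CPM, the log2 fold change was 1.45 (SE 0.28, adjusted p = 0.00389 by edgeR). Dct kept its call in all 17 alternative analyses of each comparison, with adjusted p up to 0.0486 against wild type and up to 0.0188 against GFP.

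Tyrp1 (chromosome 4, 80480134 to 80497622, plus strand, mm9) had 28.0, 26.8 and 27.1 CPM in rd10 libraries 1 to 3, 10.6, 8.02 and 9.73 CPM in GFP libraries 1 to 3, and 6.97, 20.1 and 12.1 CPM in wild-type libraries 1 to 3. The rd10 values were close together and above all others, with wild type 2 the nearest. Its mean was 27.3 ± 0.611 CPM in the rd10 libraries, against 13.1 ± 6.62 CPM in wild type (SD, n = 3 each). The log2 fold change was 1.06 (SE 0.31, adjusted p = 0.0287 by edgeR). Against GFP, with 9.45 ± 1.32 CPM, it was 1.53 (SE 0.32, adjusted p = 0.00584 by edgeR). The call against wild type was lost without wild type 3 (adjusted p = 0.0854 by edgeR) and without rd10 1 (0.0690), rd10 2 (0.0596) or rd10 3 (0.0624). Over all alternatives the highest adjusted p was 0.0854. The fit without the libraries with lens RNA, with wild type 1 alone for its group, gave a log2 fold change of 1.97. The call against GFP held in all 17 alternatives.

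Tyr (chromosome 7, 94575915 to 94641921, minus strand, mm9) had 11.9, 9.01 and 10.3 CPM in rd10 libraries 1 to 3, 7.62, 12.1 and 7.34 CPM in GFP libraries 1 to 3, and 7.88, 5.87 and 9.13 CPM in wild-type libraries 1 to 3. The highest single value was that of GFP 2, and the groups overlapped in both comparisons. The log2 difference was 0.45 against wild type (95% interval -0.15 to 1.05, adjusted p = 0.238 by edgeR) and 0.21 against GFP (-0.39 to 0.81, adjusted p = 0.584 by edgeR). The interval against GFP lies below the fitted log2 changes of Dct and Tyrp1 in that comparison, and the difference between the genes was not tested.

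The enzyme genes also differed in how they varied from library to library. The ratio of Dct to Tyrp1 counts stayed between 2.20 and 2.80 in rd10, between 2.13 and 3.07 in GFP and between 2.22 and 2.58 in wild type. The ratio of Dct to Tyr counts was 6.57, 6.54 and 6.36 in rd10 libraries 1 to 3, 2.96, 2.03 and 3.68 in GFP libraries 1 to 3, and 2.28, 7.59 and 3.36 in wild-type libraries 1 to 3. The ratio of Dct to Tyrp1 thus overlapped between all groups, although within GFP the library lowest in Dct was the highest in Tyrp1. The ratio of Dct to Tyr ranged more widely, and wild type 2 had a higher Dct to Tyr ratio than any rd10 library. These ratios are compared between libraries and say nothing of the levels of the genes relative to each other, since they are not divided by length.

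Divided by the exon length of each gene in the GENCODE M21 annotation, Dct had the highest level of the 7 genes, 30.7 ± 4.49 CPM per kilobase in rd10, 11.2 ± 1.00 in GFP and 14.1 ± 6.04 in wild type (SD, n = 3 each). Tyrp1 was next with 10.03 ± 0.225 CPM per kilobase in rd10, 3.47 ± 0.483 in GFP and 4.80 ± 2.43 in wild type. The means of the other 5 genes lay between 0.447 and 2.98 CPM per kilobase in rd10, between 0.124 and 1.54 in GFP and between 0.175 and 1.73 in wild type. Slc45a2 was the lowest of the 7 in each group. The exon lengths are unions over transcripts, and the annotation the authors counted on is not given in the sources used here.

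Slc45a2 (chromosome 15, 10930476 to 10958988, plus strand, mm9) had 31, 11 and 9 counts in rd10 libraries 1 to 3, 3, 4 and 4 counts in GFP libraries 1 to 3, and 1, 9 and 6 counts in wild-type libraries 1 to 3. It was the member that did not pass the filter on low counts, and rd10 1 had more counts than any other library. The counts of rd10 3 and wild type 2 were equal, and after scaling these libraries were at 0.664 and 0.866 CPM. With no filter on low counts its log2 difference was 1.35 against wild type (adjusted p = 0.253 by edgeR) and 1.83 against GFP (adjusted p = 0.127 by edgeR), neither past the threshold.

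Oca2 (chromosome 7, 63495141 to 63791887, plus strand, mm9) had 4.11, 5.63 and 2.80 CPM in rd10 libraries 1 to 3, 3.54, 2.75 and 2.57 CPM in GFP libraries 1 to 3, and 3.13, 2.21 and 1.60 CPM in wild-type libraries 1 to 3. The lowest rd10 library overlapped with both normal groups. The log2 difference was 0.85 against wild type (SE 0.38, adjusted p = 0.120 by edgeR) and 0.50 against GFP (SE 0.38, adjusted p = 0.336 by edgeR), neither past the threshold.

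Mlana (chromosome 19, 29772431 to 29782796, plus strand, mm9) had 40, 34 and 30 counts in rd10 libraries 1 to 3, 1, 2 and 10 counts in GFP libraries 1 to 3, and 3, 28 and 17 counts in wild-type libraries 1 to 3. The GFP libraries lay below every rd10 library, while wild type 2, at 2.69 CPM after scaling, lay within the rd10 range of 2.21 to 3.16 CPM. Its mean was 2.70 ± 0.474 CPM in the rd10 libraries, against 0.424 ± 0.463 CPM in GFP (SD, n = 3 each). The log2 fold change was 2.63 (SE 0.82, adjusted p = 0.0331 by edgeR). This call was lost without any of rd10 1, rd10 2, rd10 3, GFP 1 or GFP 2 (adjusted p = 0.0627 to adjusted p = 0.0872) and without the libraries with lens RNA (log2 1.48, adjusted p = 0.184, with GFP 3 alone for its group), and over all alternatives the adjusted p ran from 0.00748 to 0.184. Leaving out 1 library moved the log2 fold change between 2.14 and 4.05, the highest being without GFP 3 (adjusted p = 0.0199 by edgeR). Against wild type, with 1.57 ± 1.20 CPM, the log2 difference of 0.78 did not pass (95% interval -0.79 to 2.35, adjusted p = 0.434 by edgeR).

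Mitf (chromosome 6, 97757052 to 97971352, plus strand, mm9) had 16.9, 12.2 and 9.96 CPM in rd10 libraries 1 to 3, 6.98, 11.3 and 6.20 CPM in GFP libraries 1 to 3, and 9.69, 6.83 and 10.7 CPM in wild-type libraries 1 to 3. The groups overlapped in both comparisons. The log2 difference was 0.52 against wild type (95% interval -0.15 to 1.19, adjusted p = 0.222 by edgeR) and 0.67 against GFP (SE 0.31, adjusted p = 0.116 by edgeR). The difference from GFP passed with library totals (adjusted p = 0.0306), without GFP 2 (0.0314) and without the libraries with lens RNA (0.0203, with GFP 3 alone for its group), and over all alternatives the adjusted p ran from 0.0203 to 0.355. Counts per gene do not separate the Mitf transcripts that start at different promoters in pigment epithelium and in melanocytes.

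**Figure D3:**
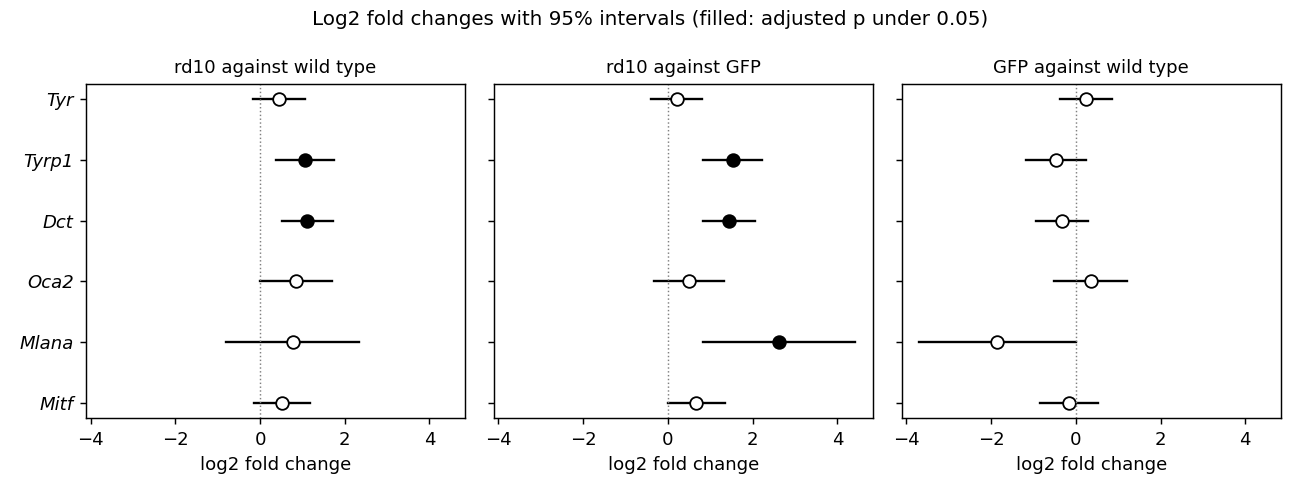
Log2 fold changes of the 6 tested genes (dots) with 95% intervals (lines) in the 3 comparisons, the group named first over the one named second, filled where the adjusted p was under 0.05. Dct and Tyrp1 are filled against wild type and against GFP, Mlana against GFP, and no gene in GFP against wild type.

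In GFP against wild type, no gene was called by edgeR's quasi-likelihood test, among the 6 tested members (0) or among all 14300 genes (0, that is 0% called higher and 0% lower). At an unadjusted p under 0.05 there were 1 member, Mlana, and 214 genes in all, and DESeq2 called 0 members and 2 genes. Mlana was lower in GFP by a log2 difference of -1.85 (unadjusted p = 0.0497, adjusted p = 1 by edgeR), with overlapping libraries. No member had GFP values wholly above or wholly below those of wild type, where 1.52% of all genes lay above and 2.46% below. Dct had a log2 difference of -0.33 (95% interval -0.94 to 0.28) and Tyrp1 of -0.47 (-1.17 to 0.24). Tyr was at 0.24, Oca2 at 0.35 and Mitf at -0.16, and the median of the 6 was -0.24, beside 0.01 over all genes. For Dct and Tyrp1, wild type 1 was the lowest and wild type 2 the highest of the 6 normal libraries.

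**Figure D4:**
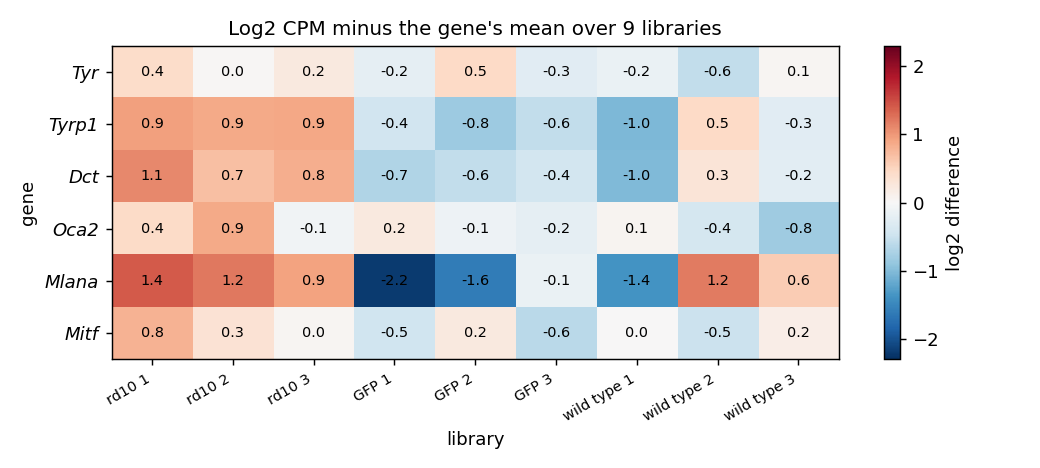
Log2 CPM of the 6 tested genes in each of the 9 libraries, minus the mean of the gene over all libraries (colour and number, prior count of 2). Tyrp1 and Dct are above their mean in all rd10 libraries and in wild type 2, and Mlana is lowest in GFP 1, GFP 2 and wild type 1.

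The pigment epithelium was followed by 10 marker genes that are not needed for melanin. Their summed level was 570, 462 and 663 CPM in rd10 libraries 1 to 3, 344, 531 and 379 CPM in GFP libraries 1 to 3, and 217, 625 and 500 CPM in wild-type libraries 1 to 3. These sums overlapped between all groups, and wild type 1, the wild-type library lowest in Dct and Tyrp1, was also the lowest here. Ttr had the largest part, with means of 284 CPM in rd10, 190 CPM in GFP and 201 CPM in wild type. Rgr was next, at 105, 105 and 115 CPM in the same order, beside mean sums of 565, 418 and 447 CPM. The sum thus weighs these genes far more than the other markers. Gene by gene, 7 of the 9 tested markers had positive log2 differences from wild type and from GFP, with medians of 0.60 and 0.65. The rd10 values lay above and apart from those of wild type for 4 markers and from those of GFP for 5, where 26.1% and 25.1% of all genes did so. Mfrp, which overlaps C1qtnf5 on the genome, was at 0 in every library, and Best1 was at 1.69 CPM or below in each. Of the 9 tested markers, 2 rose against wild type, Lrat, which esterifies retinol, by 1.90-fold (adjusted p = 0.0154 by edgeR) and the lactate transporter gene Slc16a8 by 1.90-fold (adjusted p = 0.0497 by edgeR). The same 2 passed against GFP, by 1.76-fold and 2.21-fold. Over all tested genes, 14.5% were called higher against wild type and 15.2% against GFP. Rrh and Best1, next by adjusted p, had log2 differences of 0.67 and 1.11 from wild type (adjusted p = 0.0606 and adjusted p = 0.185 by edgeR).

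Rpe65, the retinoid isomerase specific to the pigment epithelium, was set beside the melanin genes after its values were seen. It was, with Rgr, 1 of the 2 tested markers with a negative log2 difference from both normal groups. Its level was 31.2, 25.1 and 37.6 CPM in rd10 libraries 1 to 3, 33.8, 33.6 and 29.1 CPM in GFP libraries 1 to 3, and 17.1, 44.3 and 48.7 CPM in wild-type libraries 1 to 3. The groups overlapped, and the log2 difference of rd10 from wild type was -0.23 (adjusted p = 0.622 by edgeR) and from GFP -0.04 (adjusted p = 0.936 by edgeR). The summed CPM of the 6 melanin genes without Mitf, divided by that of Rpe65, was 4.10, 4.14 and 2.88 in rd10 libraries 1 to 3, 1.32, 1.44 and 1.65 in GFP libraries 1 to 3, and 2.13, 1.72 and 1.15 in wild-type libraries 1 to 3. Each rd10 library was above each normal library in this ratio. Divided by the sum of all 10 markers, the ratio was 0.225, 0.225 and 0.163 in rd10 libraries 1 to 3, 0.130, 0.0908 and 0.127 in GFP libraries 1 to 3, and 0.168, 0.122 and 0.112 in wild-type libraries 1 to 3, and wild type 1 then overlapped with rd10 3. The part of attached pigment epithelium in the higher Dct and Tyrp1 levels was not tested.

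**Figure D5:**
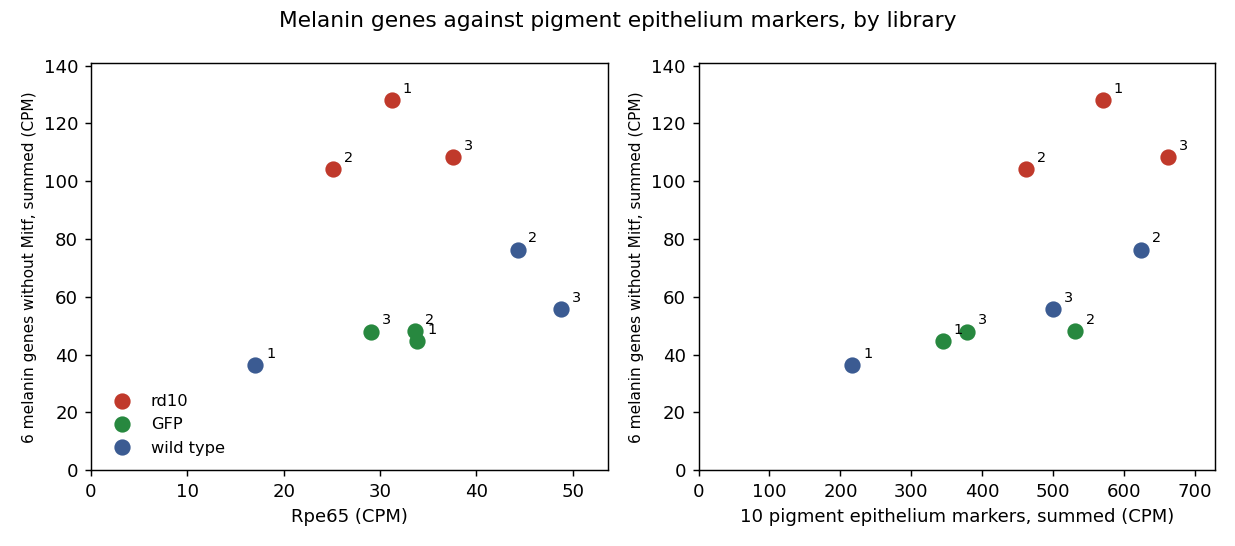
Summed CPM of the 6 melanin genes without Mitf against Rpe65 (left) and against the sum of 10 pigment epithelium markers (right), 1 point per library with its replicate number. The rd10 points lie at 104 to 128 CPM of melanin genes, above the 36.4 to 76.3 CPM of the normal libraries, while their Rpe65 lies within the range of wild type.

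Genes of the melanosome itself were read next. Of 9 genes of its matrix, ion transport and acidity, all tested, 2 rose against wild type and 3 against GFP. Over all tested genes, 14.5% and 15.2% were called higher in these comparisons. The median log2 fold change of the 9 genes was 0.95 and 0.97. DESeq2 called 6 and 4 of them higher, beside 2604 and 2634 of the 14300 genes. Slc7a11, the cystine transporter that supplies the pale form of melanin, rose 3.51-fold against wild type (adjusted p = 0.0127 by edgeR) and 3.78-fold against GFP. Tpcn2, an ion channel of the melanosome membrane, rose 1.82-fold (adjusted p = 0.0279 by edgeR) and 2.78-fold. Gpnmb, a melanosomal glycoprotein that macrophages also express, rose 2.74-fold against GFP (adjusted p = 0.00509 by edgeR), and its log2 difference of 0.78 from wild type did not pass (adjusted p = 0.0652). Pmel, which forms the fibrils on which melanin is laid down and overlaps Dgka on the genome, had log2 differences of 1.38 and 1.33 (adjusted p = 0.0502 and adjusted p = 0.0543 by edgeR), just short of the threshold, with each rd10 library above each normal library.

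The general machinery of melanosome biogenesis and transport, which other organelles also use, had no common direction. Of its 21 genes, 1 fell and 20 did not pass against wild type, with a median log2 fold change of 0.03. Over all tested genes, 13.9% were called lower and 14.5% higher against wild type. Hps3, a subunit of a complex that sorts melanosomal cargo, fell by 1.07 on the log2 scale against wild type (adjusted p = 0.00679 by edgeR), and Cp, another gene, overlaps it on the genome. Against GFP, Hps3 and Hps4 fell by 1.20 and 0.74 on the log2 scale and Hps1 rose 2.28-fold, while 18 did not pass. The shares over all tested genes were 15% lower and 15.2% higher against GFP. Rab38 and Myo5a, which serve the traffic of tyrosinase-family enzymes and the movement of melanosomes, differed from wild type by 1.13 and 0.85 on the log2 scale, short of the threshold (adjusted p = 0.0861 and adjusted p = 0.0748 by edgeR). Hps4 was nearer the threshold and lower, with a log2 difference of -0.57 from wild type (adjusted p = 0.0601 by edgeR).

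Among the listed transcription factors that act with Mitf or upstream of it, 5 of 8 were matched and tested. Sox9, which is also a gene of Müller glia, rose 2.64-fold, and Pax6, which amacrine and ganglion cells also express, rose 1.62-fold against wild type (adjusted p = 6.45e-04 and adjusted p = 0.0104 by edgeR). Otx2, a partner of Mitf in pigment epithelium that photoreceptors and bipolar cells also express, fell by 0.65 on the log2 scale (adjusted p = 0.00888 by edgeR). Lef1, at 1.19 on the log2 scale, did not pass (adjusted p = 0.0801). The same 3 genes passed in the same directions against GFP. The shares of all tested genes called were 14.5% higher and 13.9% lower against wild type. Against GFP these shares were 15.2% and 15%. Between GFP and wild type, edgeR called 0 genes of any list here, DESeq2 called 0, and 2 genes of the melanosome matrix list and 1 of the biogenesis list had an unadjusted p under 0.05.

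Markers of other pigmented or adjoining tissue were followed beside these results. For 6 genes of the melanocyte lineage the sum was 33.4 to 41.9 CPM in rd10, 25.3 to 27.3 CPM in GFP and 28.5 to 30.1 CPM in wild type. Of the 5 tested, Ednrb, which Müller glia also express, rose 2.86-fold against wild type (adjusted p = 4.03e-04 by edgeR), Mc1r, the melanocortin receptor of melanocytes, fell by 2.98 on the log2 scale (adjusted p = 0.00123 by edgeR), and 3 did not pass. The shares of all tested genes called against wild type were 14.5% higher and 13.9% lower. Sox10 was at 1.98 CPM or below in every library, and Pax3 was at 0 in all but rd10 2, which had 0.242 CPM. For 5 of 6 listed genes of iris and ciliary body that were matched the sum was 76.5 to 103 CPM in rd10, 24.1 to 52.0 CPM in GFP and 22.1 to 63.6 CPM in wild type, most of it from Optc, a gene of the ciliary epithelium. No gene of this list was called against wild type (0 of 3 tested, with 1 at an unadjusted p under 0.05 and 0 by DESeq2). Optc had 70.2, 98.7 and 78.5 CPM in rd10 libraries 1 to 3, 31.5, 18.8 and 43.5 CPM in GFP libraries 1 to 3, and 16.0, 51.6 and 58.7 CPM in wild-type libraries 1 to 3. It rose 2.63-fold against GFP (adjusted p = 0.0304 by edgeR), and its log2 difference of 0.97 from wild type did not pass (adjusted p = 0.105).

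For 5 genes of sclera and choroid stroma the sum was 42.4 to 92.2 CPM in rd10, 14.3 to 23.8 CPM in GFP and 9.09 to 36.7 CPM in wild type. Col1a2, a collagen chain, rose 3.59-fold against wild type (adjusted p = 9.9e-04 by edgeR), and the other 3 tested genes, Ogn, Col1a1 and Dcn, did not pass. Against GFP, 1 of the 4 tested genes was called higher. The shares of all tested genes called higher were 14.5% against wild type and 15.2% against GFP. All 4 had positive log2 differences in both comparisons, with medians of 1.32 against wild type and 1.79 against GFP. Ogn overlaps Cenpp on the genome. Lum was at 0.516 CPM or below in every library. The sums of the melanocyte, iris and ciliary body, and stroma lists were thus higher in each rd10 library than in each normal library. So were Dct and Tyrp1. Gene by gene, 2 of the 4 tested stroma genes lay above and apart from wild type and 4 from GFP. Of all tested genes, 26.1% and 25.1% did so. Col1a2 and Ogn had means of 28.6 and 27.6 CPM in rd10, beside a mean stroma sum of 62.9 CPM. In the melanocyte list and in the iris and ciliary body list the genes did not share the direction of the sums. Of the 3 tested genes of iris and ciliary body, only Optc had a positive log2 difference from wild type and from GFP. Des and Myh11 had log2 differences of -0.39 and -0.28 from wild type. Ednrb, also a gene of Müller glia, had 17.7 to 22.4 CPM in rd10 and 6.46 to 8.14 CPM in the normal libraries. Mc1r had 0.295 to 0.790 CPM in rd10 and 3.33 to 6.42 CPM in the normal libraries. The part of these tissues in the melanin genes was not tested.

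Of the 8 lens genes, 0 were called by edgeR in any of the 3 comparisons, with 0 at an unadjusted p under 0.05 and 0 by DESeq2. All 8 rod genes fell in rd10 against each normal group, with median log2 fold changes of -7.24 and -7.39. In rd10, Dct was at 59.0 CPM in the library with lens RNA and at 78.4 and 65.2 CPM in the others. In wild type it was at 44.5 and 30.7 CPM in the libraries with lens RNA and at 18.0 CPM in wild type 1, which had none above 5 CPM. Leaving out the 5 libraries whose lens sum was over 10 times the lowest keeps rd10 1, rd10 3, GFP 3 and wild type 1. GFP and wild type then have 1 library each, assumed to vary as the 2 rd10 libraries do, which alone give the spread. On that assumption Tyrp1, Dct, Mlana and Slc45a2 passed against wild type 1. The log2 fold change was 1.99 for Dct, 1.97 for Tyrp1 and 3.10 for Mlana in that fit, and the adjusted p of Slc45a2 was 0.0451 by edgeR.

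The genes whose pattern was most like that of the melanin genes were sought among 13850 genes with a mean of at least 1 CPM. The measure was the root-mean-square difference, over the 9 libraries, between the log2 CPM of a gene and the mean profile of Tyr, Tyrp1, Dct, Oca2 and Mlana, each centred on its own mean. The nearest were Gm2a, a lysosomal activator protein, at 0.12, Trim12a, the lysosomal mannosidase gene Manba and the lipid droplet gene Plin3 at 0.15, and the kinase gene Nek6 and the locus 9330159K06 at 0.16. The cytokine gene Il34 and the metalloproteinase gene Mmp19 followed at 0.17. On the same measure Dct was at 0.17 and Tyrp1 at 0.24 from the mean profile, while Mitf was at 0.50, Tyr at 0.57, Oca2 at 0.58 and Mlana at 0.83. Nearest to Mitf alone were Gm13157, Zfp40, Vsnl1 and Nudt7, at 0.12 to 0.17.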

How the data were processed

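Each deposited file held 1 value per gene for 1 library, taken as the authors' raw counts because every value was whole and the totals differed. The build was mm9, per the submitters' processing notes. The aligner, the counting program, the annotation and the strand setting are not given in the sources used here, nor is the treatment of reads with several matches. No other gene in the files overlaps a member. Low counts were filtered with filterByExpr in edgeR 4.0.16 (minimum count 10, minimum total 15), which left 14300 of 21769 genes and 6 of the 7 members. A single edgeR model in R 4.3.3 with 1 mean per group and TMM scaling was fitted to the 9 libraries, and groups were compared by the quasi-likelihood F-test. Benjamini-Hochberg adjustment ran over all tested genes, and calls were made at 0.05. Standard errors are the log2 fold change divided by the root of the F statistic. DESeq2 1.42.0, other scalings, filters and library subsets were the alternatives.

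The members and gene lists were chosen with earlier results of these data known. Besides the members, up to 4 genes per list were named, by smallest adjusted p in rd10 against wild type, with genes that passed in the other comparisons. By likeness of pattern, 8 genes were named for the members and 4 for Mitf. The fit was tested on simulated data. Chi-square per degree of freedom between replicates was 13.0 to 76.1, so the replicates differed by more than counting error. Tests measure the spread between replicates, and the number of libraries limits their precision.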

Additional observations from a re-analysis of the deposited data

How the results depend on the processing

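In rd10 against wild type and against GFP, the 6 tested members were higher in rd10 in all 17 alternatives of each comparison. Leaving out 1 library at a time gave 1 to 2 members called higher against wild type and 2 to 3 against GFP, and over all genes 1269 to 2891 higher and 1186 to 2530 lower against wild type, 1297 to 2266 and 1305 to 2138 against GFP, and 0 to 4 higher in GFP against wild type. Library totals raised the median of all genes to 0.25 and 0.31 (log2) in the rd10 comparisons and gave 3604 higher and 1077 lower against wild type and 4041 and 1055 against GFP, where TMM gave 2174 and 2138. Oca2 then passed against wild type (1.15, adjusted p = 0.0449). Without the 5 libraries with lens RNA, GFP and wild type have 1 library each and the spread comes from 2 rd10 libraries. That fit called 4 members higher against wild type, and 13 genes higher and 10 lower in GFP 3 against wild type 1, a comparison of 1 library with 1. In GFP against wild type, signs turned in that fit for Dct (0.59), Tyrp1 (0.48), Mlana (1.62), Oca2 (-0.28) and Tyr (-0.10), and on leaving out 1 library for Dct (range -0.58 to 0.027, wild type 2 left out), Mitf (-0.44 to 0.015, GFP 3 left out) and Tyr (-0.0077 to 0.39, GFP 2 left out), and DESeq2 called 2 genes lower. The causes were not tested.

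Same-numbered replicates had correlations of -0.37 to 0.36. With 3 libraries per group, these cannot decide whether equal numbers mark a shared batch. With the replicate block, 2 and 3 members were called higher, and 1817 and 1996 genes were higher and 1789 and 1912 lower, in rd10 against wild type and against GFP. Of 3 rd10 libraries, 1 correlated best with its own number in wild type and 2 in GFP. Mlana and Slc45a2 had 1 to 40 counts per library, so counting error weighs more on them than on the other members.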
